A study of Mus musculus with 9 samples.

Results

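The sarcomeric myosin light chains and the kinases that phosphorylate them were compared between heart and quadriceps muscle of mice after sham surgery. They are the 10 genes Myl1, Myl2, Myl3, Myl4, Myl7, Mylpf, Mylk, Mylk2, Mylk3 and Mylk4, taken by name from the deposited table of quadriceps against heart, where they have 13 of the 35745 transcripts and are 10 of the 24537 gene names. The study sequenced RNA of 9 libraries, 3 each of sham heart, sham quadriceps and quadriceps after transverse aortic constriction (TAC), an operation that narrows the aorta and overloads the left ventricle. C57Bl6 mice were operated on at 8 weeks of age and their tissues were taken 12 weeks later. The methods describe the wild-type animals as male C57Bl/6JCrl mice. All 6 libraries used below are from mice that had sham surgery, so no untreated animal is included, and the labels name the tissue as heart without saying which chambers were taken. Nothing in the labels ties a library to an animal, although the study calls its RNA-seq samples biological replicates, and p-values measure the spread between these samples. None of the 10 genes is among the 587 transcripts listed in the table of TAC against sham quadriceps, so their response to TAC was not analysed here.

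Each myosin head carries an essential and a regulatory light chain, which wrap around its lever arm and stiffen it. Regulatory light chains are phosphorylated near their amino end by calmodulin-activated light chain kinases, and a myosin phosphatase removes the phosphate. In smooth muscle this switches contraction on, whereas in striated muscle, where troponin is the switch, it tunes the force. Vertebrates keep separate light chain genes for the ventricle and slow fibres, for the atrium, and for fast skeletal fibres, and the set in use is a classical mark of the kind of muscle.

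The stretch that the kinases act on is shown first, since it is what the 3 regulatory light chains have in common. The first 75 coding bases, read from the GENCODE transcripts matched to the counted RefSeq identifiers, are printed 5′ to 3′ from the start codon, with every serine codon in capitals.
Mylpf: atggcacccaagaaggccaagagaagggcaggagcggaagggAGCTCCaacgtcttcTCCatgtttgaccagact
Myl2: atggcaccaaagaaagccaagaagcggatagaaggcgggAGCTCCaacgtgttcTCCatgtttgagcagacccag
Myl7: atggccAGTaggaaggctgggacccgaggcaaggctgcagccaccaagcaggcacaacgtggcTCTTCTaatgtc
In each of them 3 of the first 25 codons encode serine, and a pair of these stand side by side. With the start codon counted as 1, the pair is codons 15 and 16 in Mylpf, 14 and 15 in Myl2, and 22 and 23 in Myl7. Within these bases the remaining serine codon comes ahead of the pair in Myl7 and after it in Mylpf and Myl2. Over the whole coding sequence, Mylpf and Myl2 were identical at 71.7% of the aligned bases, Mylpf and Myl7 at 69.3%, and Myl2 and Myl7 at 65.9%. Among the essential light chains the identity was 75.8% for Myl1 and Myl3, 78.9% for Myl1 and Myl4, and 78.1% for Myl3 and Myl4. Over whole transcripts of genes in the same family, the longest run of identical bases was 29, between Myl3 and Myl4. It was at most 21 between any pair of kinases, and all of these runs are shorter than an untrimmed read.

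In the mouse build GRCm38 the regulatory light chain genes lie at chr5:122100951-122113472 (Myl2, plus strand), chr7:127208890-127214298 (Mylpf, plus strand) and chr11:5896637-5898782 (Myl7, minus strand). The essential light chain genes lie at chr9:110741861-110769798 (Myl3, plus strand), chr1:66924295-66945404 (Myl1, minus strand) and chr11:104550663-104595753 (Myl4, plus strand). The kinase genes lie at chr16:34745210-35002420 (Mylk, plus strand), chr2:152911352-152923068 (Mylk2, plus strand), chr8:85324303-85386345 (Mylk3, minus strand) and chr13:32700834-32783954 (Mylk4, minus strand). Genes on the opposite strand overlap Myl2 (Ccdc63), Myl3 (Pth1r), Mylk3 (AA672651), Mylk4 (Gm27342), Mylk and Myl4. These overlaps are of whole gene spans, and overlap with the exons of the counted transcripts was not examined. The sources used here do not say whether counting used the strand, so any reads in exons shared by such a pair could not be told apart.

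The 6 libraries held between 23383452 and 38382751 counts. Their labels were checked against tissue markers. In CPM (counts scaled to a library of 1e+06 after TMM, the trimmed mean of M-values normalization), the 8 fast fibre markers summed to between 2.35 and 3.67 in heart and between 74282 and 100207 in quadriceps, and the 7 cardiomyocyte markers to between 38161 and 40776 in heart and between 320 and 603 in quadriceps. Markers of other cells also differed between the tissues. The summed CPM was 415 to 446 in heart and 126 to 142 in quadriceps for 4 endothelial genes, 427 to 477 and 311 to 423 for 4 fibroblast genes, 20.5 to 22.1 and 7.79 to 16.6 for 3 macrophage genes, and 117 to 142 and 33.5 to 41.4 for 3 blood genes. All 3 adipocyte genes were higher in quadriceps, where they summed to 54.0, 20.5 and 6.67 CPM, against 0.279 to 0.903 in heart. Genes of regenerating or embryonic fibres (3 of 4 called higher) summed to 12.1 to 16.2 CPM in quadriceps and 3.38 to 5.44 in heart. The part of these cells in the results was not tested, and in bulk tissue fewer cells of a type and less RNA per cell cannot be told apart.

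All 13 transcripts of the 10 genes passed the count filter and differed between the tissues at an adjusted p under 0.05 in edgeR's quasi-likelihood test, 6 of them higher and 7 lower in quadriceps. Such calls were common, since 66.6% of the 24280 tested transcripts met this rule, 32.2% as higher and 34.4% as lower. The size of the differences was less common. The study's criterion for quadriceps genes, more than 2 on the log2 scale and an unadjusted p under 0.05, was met by 6 of the 13 transcripts against 7.0% of all tested, and its mirror image under -2 by another 6 against 8.64%. In 12 of the 13 the CPM of the 3 hearts and the 3 quadriceps did not overlap, against 72.6% of all tested, and Myl4 was the exception. For Myl7 the separation rests on 3 counts in heart 3 against 1 in quadriceps 1, which is within counting error. The median absolute log2 fold change was 9.51 for the 13 transcripts and 0.74 for all tested, and the median signed value was -0.37 and -0.06. The count scaling matters for small differences. When library totals replaced the TMM scaling, the median of all tested transcripts moved to -0.80, and 17.6% rather than 48.4% of the called transcripts were higher in quadriceps. The 13 transcripts kept their direction with library totals, and relative to the median the smallest difference, that of Mylk, was -0.32 with TMM and -0.31 with totals.

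**Figure D1:**
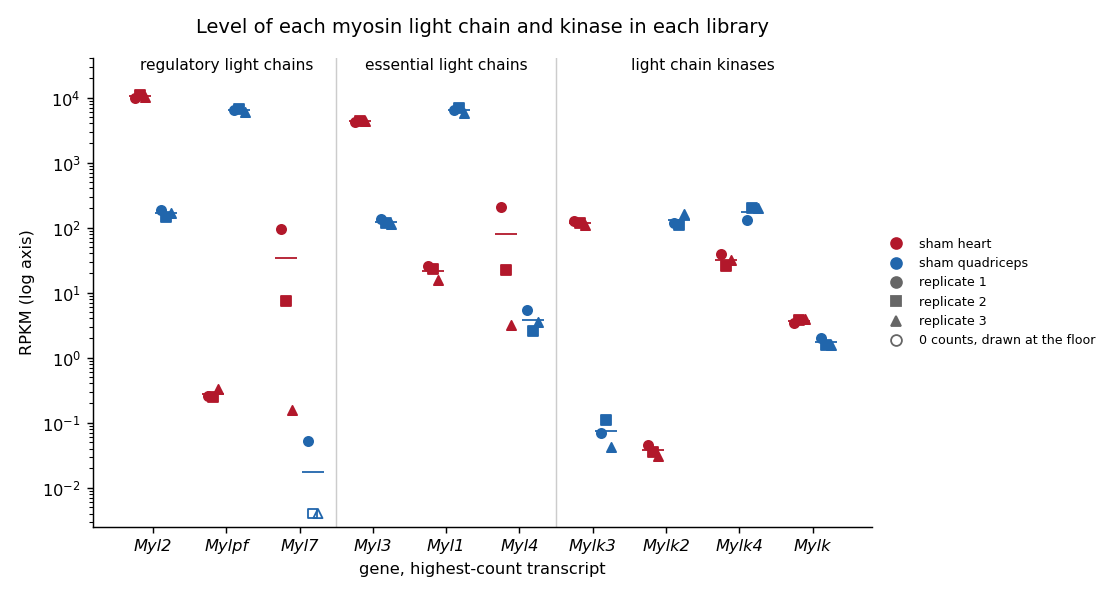
Level of the highest-count transcript of each gene in each library, in reads per kilobase of transcript, scaled by library size (RPKM, logarithmic axis), with a horizontal line at the mean of 3 libraries and open symbols at the bottom for libraries with 0 counts. Red and blue symbols lie far apart for 7 of the genes, the heart symbols of Myl7 and Myl4 are spread over more than an order of magnitude, and Mylk differs least.

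Among the regulatory light chains, heart used Myl2 and quadriceps used Mylpf. Myl2, the ventricular and slow-fibre form, had 231598, 264611 and 212150 counts in heart libraries 1 to 3 and 3754, 2997 and 2441 in the quadriceps libraries. Its RPKM was 10445 ± 538 in heart and 166 ± 19.4 in quadriceps (SD, n = 3), a 37.5-fold difference in CPM. The fit gave a log2 fold change (quadriceps over heart) of -5.23 (SE 0.15, edgeR adjusted p = 6.74e-09), and every heart was far above every quadriceps. Mylpf, the fast skeletal form, was the reverse. It had 7, 7 and 8 counts in the hearts and 155260, 163731 and 105257 in quadriceps, or 0.274 ± 0.0436 against 6354 ± 310 RPKM. The log2 fold change of 15.23 (SE 0.26, edgeR adjusted p = 1.78e-09) was rank 23 by absolute size among the 24280 tested. A second Mylpf transcript, NM_001347655, had 7, 7 and 9 counts in the hearts and 106726, 108017 and 68347 in quadriceps (log2 fold change 14.58).

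Myl7, the atrial regulatory light chain, behaved differently from both because its heart libraries were far apart from each other. Its counts were 2075, 164 and 3 in heart and 1, 0 and 0 in quadriceps. The first heart library was high, the second intermediate, and the third close to the quadriceps. The fitted log2 fold change was -9.76 with a wide SE of 2.83 (edgeR adjusted p = 0.0127). Taken alone, heart 2 held 224 times the summed quadriceps level in CPM (95% exact counting interval 39.7 to 8914), whereas for heart 3 the ratio was 4.81 (0.386 to 252), an interval that spans equality and covers counting error only. Without heart 1 or without heart 2 the transcript failed the filter of more than 5 counts in 2 libraries and was not tested, and without quadriceps 1 its adjusted p was 0.07 (edgeR), so a difference of Myl7 rests on these libraries.

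The essential light chains had the same division. Myl3, the ventricular and slow-fibre form, had 140635, 150688 and 129883 counts in the hearts and 3933, 3507 and 2335 in quadriceps. This corresponded to 4366 ± 84.3 and 122 ± 11.9 RPKM (SD, n = 3), with a log2 fold change of -4.41 (SE 0.14, edgeR adjusted p = 1.05e-08). Heart libraries were all above quadriceps libraries, 21.2-fold in mean CPM. Myl1, the fast skeletal form, had 776, 714 and 413 counts in the hearts and 169764, 185183 and 108212 in quadriceps, or 21.5 ± 5.41 against 6370 ± 613 RPKM. Its log2 fold change was 8.97 (SE 0.29, edgeR adjusted p = 1.18e-08), a 501-fold difference in CPM with no overlap.

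Myl1 makes a pair of proteins from separate promoters, a long one (MLC1f) and a short one (MLC3f) that lacks the extended amino end. The table holds both. NM_021285 starts at the upstream promoter and encodes 188 codons, and NM_001113387 starts 9789 bases downstream within the gene and encodes 150. The long form had 566, 493 and 256 counts in the hearts and 166228, 187873 and 109391 in quadriceps, with a log2 fold change of 9.51 (SE 0.34, edgeR adjusted p = 2.13e-08). Counts of the short over the long form were 1.02, 0.986 and 0.989 in quadriceps, near parity, and 1.37, 1.45 and 1.61 in heart, where the short form led in all 3 libraries. The groups did not overlap, and an exact two-sided permutation test gave p = 0.1, the smallest that 3 against 3 libraries allow. The pair share 699 exonic bases and have 104 (short) and 383 (long) of their own, and how reads in the shared part were assigned is not given in the sources used here, so these ratios are not the ratio of the molecules. For the Mylpf pair, which share 600 bases, the same count ratio (NM_016754 over NM_001347655) was 1.45 to 1.54 in quadriceps. The heart counts of at most 9 are too low to place its ratio there.

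Myl4, the atrial and embryonic essential light chain, again varied among hearts. It had 6811, 756 and 91 counts in the hearts and 153, 75 and 73 in quadriceps, which in CPM is 143, 15.03 and 2.12 against 5.63, 3.14 and 4.13. Hearts 1 and 2 were above all 3 quadriceps libraries and heart 3 was below them, so the groups overlap. The log2 fold change was -3.63 (SE 1.20, edgeR adjusted p = 0.0232). It rested on heart 1, without which it was -1.0 (adjusted p = 0.20), and it turned to 0.98 (adjusted p = 0.062) when hearts 1 and 2 were left out, an alternative added after the values were seen. Without quadriceps 1, 2 or 3 the adjusted p was 0.054, 0.069 and 0.074 (all edgeR).

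**Figure D2:**
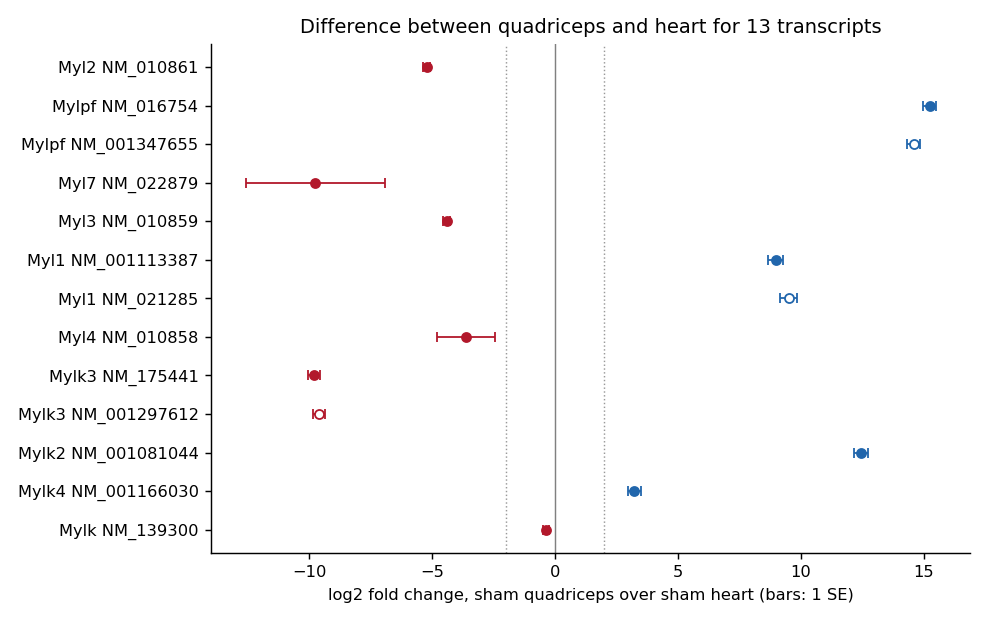
Log2 fold change of sham quadriceps over sham heart for the 13 transcripts, with bars of 1 SE from the edgeR fit, open symbols for the further transcripts of a gene, and dotted lines at 2 and -2. The fast skeletal forms Mylpf, Mylk2 and Myl1 lie furthest to the right, Mylk3 and Myl7 lie furthest to the left, the bars of Myl7 (SE 2.83) and Myl4 (SE 1.20) are the widest, and Mylk at -0.37 alone lies between the dotted lines.

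Levels of different genes were set against each other within a library by RPKM, which divides by transcript length. In heart Myl2 made up 99.0, 99.9 and 100.0% of the RPKM of the 3 regulatory light chains, and in quadriceps Mylpf made up 97.2, 97.9 and 97.3%, with Myl2 the remaining 2.55 ± 0.358%. Myl7 took 0.953, 0.0665 and 0.00152% in the 3 hearts. Each tissue thus drew nearly all of its regulatory light chain RNA from a single gene. Among the essential light chains, Myl3 made up 94.7, 99.0 and 99.6% in heart, with Myl4 at 4.68, 0.506 and 0.0711%, and Myl1 made up 98.0 ± 0.209% in quadriceps, with Myl3 at 1.89 ± 0.186%. The lower Myl3 share of heart 1 mirrors its Myl4. The summed regulatory over the summed essential RPKM was 2.24, 2.48 and 2.32 in heart and 0.997, 0.962 and 1.06 in quadriceps. The hearts held more regulatory than essential light chain RNA and the quadriceps about equal amounts (exact two-sided permutation p = 0.1, the smallest possible here). Summing all transcripts of a gene in place of its highest-count one raised the quadriceps shares of Mylpf to 98.5% and of Myl1 to 98.9%. Reads in exons that such transcripts share may enter these sums more than once.

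**Figure D3:**
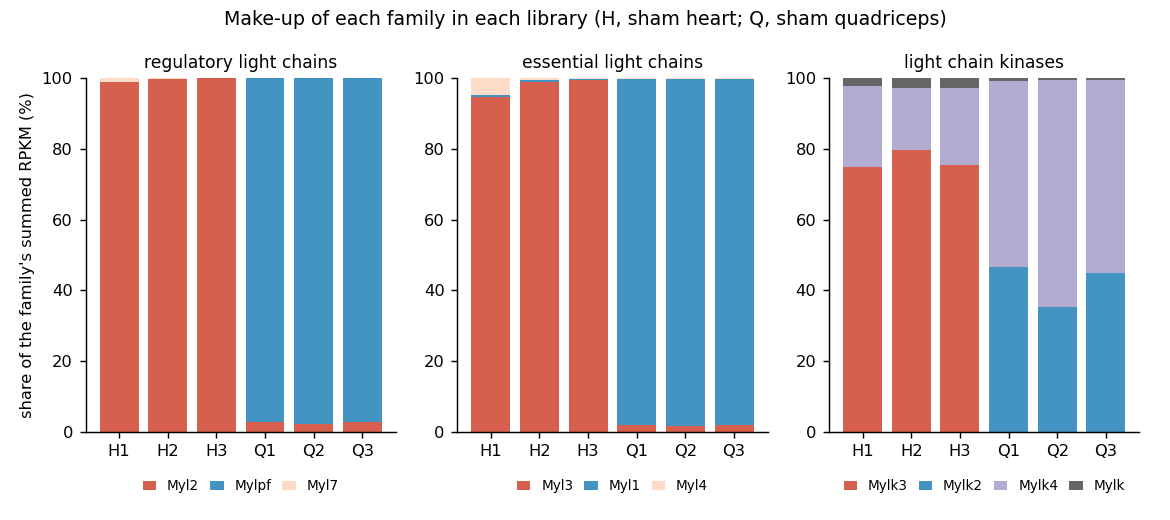
Share of each gene in the summed RPKM of its family (%), in 3 sham heart (H1 to H3) and 3 sham quadriceps (Q1 to Q3) libraries. A single gene fills almost the whole bar for both light chain families in each tissue, the Myl4 segment of 4.68% is visible in H1, and the kinases are the family in which a pair of genes share each tissue.

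Among the kinases, Mylk3 and Mylk2 divided by tissue too, whereas Mylk4 and Mylk were detected well in both tissues. Mylk3, the cardiac light chain kinase, had 14470, 13669 and 10971 counts in the hearts and 7, 11 and 3 in quadriceps, with 118 ± 9.71 and 0.0738 ± 0.0337 RPKM (SD, n = 3). Its log2 fold change was -9.81 (SE 0.23, edgeR adjusted p = 2.35e-09), and its other transcript, NM_001297612, was close to it (-9.61). Mylk2, the skeletal muscle kinase, had 5, 4 and 3 counts in the hearts and 11242, 10728 and 11129 in quadriceps, which is 0.0375 ± 0.00774 against 130 ± 28.0 RPKM. The log2 fold change of 12.45 (SE 0.29, edgeR adjusted p = 2.45e-09) was rank 52 by absolute size. Each of these kinases was all but missing from the tissue of the other.

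Mylk4, a further member of the kinase family, was detected well in both tissues. It had 8168, 5593 and 5819 counts in the hearts and 24251, 37305 and 25955 in quadriceps. The RPKM was 32.1 ± 6.68 in heart and 177 ± 38.8 in quadriceps, and the log2 fold change 3.23 (SE 0.25, edgeR adjusted p = 3.49e-06; 2.46 with library totals). Every quadriceps library lay above every heart library, 9.37-fold in mean CPM. Mylk, the kinase of smooth muscle and non-muscle cells, differed least of the 10 genes. It had 983, 1129 and 1018 counts in the hearts and 511, 405 and 280 in quadriceps, or 20.6, 22.4 and 23.7 against 18.8, 16.9 and 15.8 CPM. The libraries do not overlap, but the log2 fold change of -0.37 (SE 0.11, edgeR adjusted p = 0.0128) was exceeded in size by 73.1% of the tested transcripts. Its adjusted p was 0.059 without heart 3 and 0.063 without quadriceps 3, and 0.08 without hearts 1 and 2 (edgeR). Smooth muscle markers moved with it in sum, from 144 to 171 CPM in heart to 86.2 to 108 in quadriceps, although of the 5 genes Acta2 and Smtn were lower, Tagln was higher (a call that is lost with library totals), and Myh11 (0.05) and Cnn1 (0.12) did not pass the test. Whether this accounts for Mylk was not tested.

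Of the RPKM of the 4 kinases, Mylk3 made up 76.7 ± 2.58% in heart, Mylk4 20.8 ± 2.76% and Mylk 2.45 ± 0.394%. In quadriceps Mylk4 made up 57.1 ± 6.18%, Mylk2 42.3 ± 6.09% and Mylk 0.577 ± 0.197%. Mylk4 was the leading kinase transcript of all 3 quadriceps libraries, at 52.5, 64.1 and 54.6%, against 46.7, 35.4 and 44.9% for Mylk2. Within each library Mylk4 was above Mylk2, while across libraries their levels overlap, from 132 RPKM at the lowest for Mylk4 to 162 at the highest for Mylk2. Summing the overlapping transcripts of Mylk3 raised its share in heart to 86.9%. The pair share 2916 exonic bases and had the same counts of 7, 11 and 3 in quadriceps, so this sum may hold the same reads more than once.

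Ranked by RPKM in heart, Myl2 and Myl3 stood first and second and did not overlap with any other gene. Below them Mylk3 (118), Myl4 (78.8), Myl7 (34.6), Mylk4 (32.1) and Myl1 (21.5) overlapped from each to the next. Mylk (3.72), Mylpf (0.274) and Mylk2 (0.0375) followed, each without overlap with its neighbours in the order. The lowest heart values of Myl4 (3.15) and Myl7 (0.156) still lay below the lowest of Mylk (3.41), and that of Myl7 below the lowest of Mylpf (0.244). In quadriceps Myl1 (6370) and Mylpf (6354) led and could not be ordered. Mylk4 (177), Myl2 (166), Mylk2 (130) and Myl3 (122) overlapped from each to the next, then came Myl4 (3.85) and Mylk (1.71), and Mylk3 (0.0738) overlapped with Myl7 (0.0176).

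The small amounts of each tissue's light chains in the other tissue were set beside marker genes, in mean CPM. Heart held 0.200% of the quadriceps level of Myl1, more than of any of the 8 fast fibre markers, which ranged from 0.000296% (Tnnc2) to 0.0464% (Myh2), and more than of Mylpf (0.00255%) or Mylk2 (0.0171%). The fast fibre markers summed to between 2.35 and 3.67 CPM in the hearts. Myl1 was at 16.3, 14.2 and 9.62 CPM in hearts 1 to 3, and the source of this RNA was not tested. In the other direction, quadriceps held 2.66% of the heart level of Myl2 and 4.72% of that of Myl3. Of the 7 cardiomyocyte markers, 5 were much lower there, at 0.0170% for Myh6 (the alpha cardiac heavy chain), 0.0114% for Tnni3, 0.0738% for Tnnt2, 0.0684% for Pln and 0.00817% for Ryr2, and Mylk3 was at 0.107%. The other two were not, with Actc1, the cardiac actin, at 2.71%, close to Myl2, and Myh7, the slow heavy chain, at 24.5%. Of further genes shared by heart and slow fibres, Tnnc1 was at 4.11%, Atp2a2 at 2.16% and Myoz2 at 14.2%. Slow skeletal troponins were called higher in quadriceps, with log2 fold changes of 3.51 for Tnnt1 and 7.66 for Tnni1.

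The spread of Myl4 among the hearts was compared with that of other transcripts. Myl7, with 3 counts in heart 3, fell under the floor used and was not ranked. The highest over the lowest heart CPM of Myl4 was 67.5, the second largest among 23314 transcripts with more than 3 counts in each heart, whose median ratio was 1.15. Only 15 transcripts, or 0.0643%, had a ratio over 10. They include Mybphl, a myosin-binding protein relative (389, 25 and 6 counts in hearts 1 to 3), Shox2 (92, 25 and 8) and Dkk3 (1024, 225 and 68), with the most in heart 1. Others had another order, such as B4galnt2 (4, 384 and 425), which had the largest ratio among those ranked. These transcripts were named after their values were seen.

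Markers of atrial muscle were read beside Myl4 and Myl7. Sln, the sarcolipin gene, had 838, 48 and 2 counts in hearts 1 to 3, and Nppa, the atrial natriuretic peptide gene, 21763, 20012 and 8000. Gja5 had 222, 217 and 162 counts and Stard10 497, 316 and 304, while Bmp10, the atrial ligand, was at 0, 0 and 1. In CPM, 3 of these 5 markers had their highest value in heart 1 and their lowest in heart 3, as Myl4 and Myl7 did. Such an order is not particular to atrial genes, since Mylk3, with a CPM of 304, 272 and 255 and a highest over lowest value of 1.19, had it as well, close to the 1.24 of Gja5. As a list, 2 of the 4 tested atrial markers were called lower in quadriceps, Nppa and Gja5, Stard10 was called higher, and Sln (-0.65, edgeR adjusted p = 0.64) did not pass; with library totals Stard10 was no longer called higher. Ventricular Myl2 and Myl3 did not share this pattern, at 4862, 5260 and 4940 CPM and 2953, 2995 and 3025 CPM in the 3 hearts. The labels do not give the chambers sampled, and their part in the spread was not tested.

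**Figure D4:**
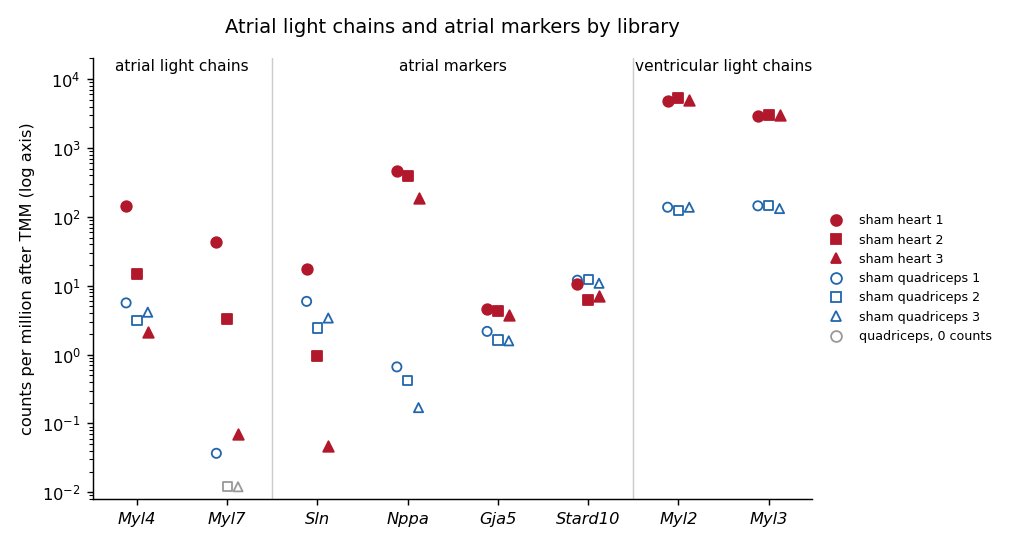
CPM of the atrial light chains Myl4 and Myl7, of 4 atrial markers and of the ventricular light chains Myl2 and Myl3 in the 3 sham heart (filled) and 3 sham quadriceps (open) libraries, on a logarithmic axis, with grey symbols for 0 counts. Heart symbols of Myl4 (143 to 2.12), Myl7 (43.6 to 0.0699) and Sln are spread over more than an order of magnitude, those of Nppa, Gja5 and Stard10 much less, and those of Myl2 and Myl3 almost coincide.

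Upstream sequence was examined for genes of both kinds, because ventricular, atrial and fast skeletal members moved apart. RefSeq promoter entries (GRCm38.p6) matched 9 of the 10 genes, and for 6 of them an entry started within 50 bases of a counted transcript. The windows below run from 250 to 51 bases before the start and are printed on the strand of the gene. Capitals mark E-boxes (CANNTG, the site of MyoD-type factors) and the CArG box, the site of serum response factor, searched on both strands.
Myl3, chr9:110763428-110763627, plus strand: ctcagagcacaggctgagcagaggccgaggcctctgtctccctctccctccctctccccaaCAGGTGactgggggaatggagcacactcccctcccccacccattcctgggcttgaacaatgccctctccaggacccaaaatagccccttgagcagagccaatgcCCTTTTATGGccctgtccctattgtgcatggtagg
Myl7, chr11:5898833-5899032, minus strand: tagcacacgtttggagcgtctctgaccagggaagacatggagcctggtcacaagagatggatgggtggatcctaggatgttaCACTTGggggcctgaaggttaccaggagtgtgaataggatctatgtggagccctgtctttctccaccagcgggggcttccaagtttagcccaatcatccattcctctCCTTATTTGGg
Myl4, chr11:104550413-104550612, plus strand: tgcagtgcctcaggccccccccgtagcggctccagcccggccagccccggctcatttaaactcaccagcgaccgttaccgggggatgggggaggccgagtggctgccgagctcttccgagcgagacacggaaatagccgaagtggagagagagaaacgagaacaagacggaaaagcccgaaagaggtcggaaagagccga
Mylpf, chr7:127211358-127211557, plus strand: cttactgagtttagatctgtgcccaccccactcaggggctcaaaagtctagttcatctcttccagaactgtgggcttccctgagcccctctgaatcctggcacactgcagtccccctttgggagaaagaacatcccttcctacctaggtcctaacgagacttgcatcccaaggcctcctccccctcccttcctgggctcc
The windows of Myl3 and Myl7 each hold 1 E-box and 1 CArG box, and those of Myl4 and Mylpf hold neither. Neither site is present in the windows of Mylk and of Mylk3 NM_175441, which are not printed. MEF2 boxes (YTAWWWWTAR) and GATA sites (WGATAR) were searched in the same windows and are not marked. The printed windows and that of Mylk held none, and that of Mylk3 NM_175441 held 1 GATA site. Over all entries a MEF2 box was present in 2.42% of windows and a GATA site in 23.1%. A CArG box was present in 1.16% of the 32841 windows of the same length over all entries, and an E-box in 59.1%. Between the CArG box and the start lie 75 bases in Myl3 and 51 in Myl7. Myl4 and Myl7 thus differ in the E-box and the CArG box, and Myl3 and Myl7 share them. Any link between these letters and the spread among the hearts was not tested. A match is a description of the letters and says nothing of binding here, and the absence of a match covers only these 200 bases.

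For 2 chosen members, Myl7 and Mylpf, the pattern across the 6 libraries was compared with that of other genes by a fixed rule. The remaining members were not compared in this way. The measure was the root mean square difference in centred log2 CPM over 9767 genes with a mean of at least 100 counts. Before the logarithm 0.5 was added to each CPM, which compresses differences among lower values. The heart CPM of Mylpf (0.139 to 0.186) lay below this constant, as did Myl7 in heart 3 and in quadriceps. Closest to Myl7 was Myl4 (0.651), followed by Cntn2 (1.36; 352, 205 and 91 counts in heart) and Cacna2d2 (1.42; 438, 235 and 117). The nearest gene to the atrial regulatory light chain was thus the atrial essential light chain, and the next genes were further away. Closest to Mylpf were Tnni2, the fast troponin I (0.114), Pvalb, the calcium buffer parvalbumin (0.213), and Actn3, the fast alpha-actinin (0.227). With 2 tissues, closeness to Mylpf rests mostly on the difference between them. Closeness to Myl7 also reflects the spread among hearts 1 to 3. There Myl7 had 2075, 164 and 3 counts and Myl4 had 6811, 756 and 91. How much the spread and the tissue difference each contribute was not tested.

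The rest of the pathway was described with 25 genes chosen for their role. In the same fit 9 were called higher and 12 lower in quadriceps, with a median log2 fold change of -0.29 against -0.06 over all tested. A log2 fold change over 2 was passed by 3 of them and one under -2 by 5. With library totals or with limma on log2 RPKM, 5 rather than 9 were called higher.

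Among the other light chains, Myl12b, a non-muscle and smooth muscle regulatory light chain, had 2832, 3072 and 2411 counts in the hearts and 177, 165 and 97 in quadriceps. Its log2 fold change was -3.22 (SE 0.12, edgeR adjusted p = 2.69e-08), while its close relative Myl12a differed by -0.40 (SE 0.15, adjusted p = 0.0388), with overlapping CPM and a call that was lost when any library but quadriceps 3 was left out. How reads that fit both of these related genes were divided is not given in the sources used here. Myl10, a further regulatory light chain, had 0 counts in all 3 hearts and 75, 44 and 43 in quadriceps, at least 36.5-fold higher against a floor of 3 counts per library. Myl6 (0.64, SE 0.12) and Myl6b (1.25, SE 0.23), essential light chains used outside the sarcomeres of fast and cardiac muscle, were called higher in the TMM fit. With library totals Myl6 turned to -0.11 and Myl6b was 0.50 with an adjusted p of 0.079 and kept its direction. For Myl9, the smooth muscle form, the TMM fit gave 0.12 (edgeR adjusted p = 0.39) and library totals gave -0.62 (adjusted p = 0.0043).

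Calmodulin is the calcium sensor that activates the kinases, and Calm2 and Calm3, genes that encode it, were higher in quadriceps. Calm3 had 4284, 4741 and 4376 counts in the hearts and 4681, 6429 and 3926 in quadriceps, with a log2 fold change of 1.21 (SE 0.16, edgeR adjusted p = 0.000115). Calm2 had 1857, 2126 and 2012 counts in the hearts and 2223, 2390 and 1511 in quadriceps, and its difference was 1.06 (SE 0.12, adjusted p = 3.7e-05). In raw counts the tissues overlap or lie close, while in CPM every quadriceps library was above every heart library, and both stayed called with library totals (0.30 for Calm2 and 0.45 for Calm3).

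Of 7 genes of the myosin phosphatase and its inhibitors, 5 were called lower and 2 higher. The targeting subunits Ppp1r12a (-0.78), Ppp1r12b (-0.55) and Ppp1r12c (-1.17, SE 0.09, edgeR adjusted p = 4.46e-06) were lower in quadriceps. Ppp1r12b, the form typical of striated muscle, had 5146, 5443 and 4082 counts in the hearts and 1764, 1741 and 1322 in quadriceps. The catalytic subunit Ppp1cb was called higher (0.67), but turned to -0.07 (adjusted p = 0.71) with library totals. The inhibitors went different ways, with Ppp1r14a (-1.52) and Ppp1r14c (-0.60) lower and Ppp1r14b (2.37, SE 0.16, adjusted p = 1.58e-06) higher.

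Among 9 other kinases of regulatory light chains and their activator, 5 were called lower and 1 higher. Dapk1, a death-associated protein kinase, had 1450, 1332 and 938 counts in the hearts and 90, 84 and 68 in quadriceps (log2 fold change -2.89, SE 0.15, edgeR adjusted p = 2.81e-07). Rock1 (-2.24, SE 0.28), Cit (-2.16) and Cdc42bpb (-2.02) were also lower, as was Rhoa (-0.92), the small GTPase that binds and activates the ROCK kinases. Rock1 had 4064, 3974 and 3298 counts in the hearts and 667, 226 and 300 in quadriceps, and its relative Rock2 did not pass the test (-0.28, adjusted p = 0.36). Dapk2 was called higher (1.10), with 0.36 and an adjusted p of 0.15 with library totals, and Dapk3 (-0.29) and Cdc42bpa (-0.09) did not pass. With library totals Rock2, Dapk3 and Cdc42bpa were called lower as well.

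**Figure D5:**
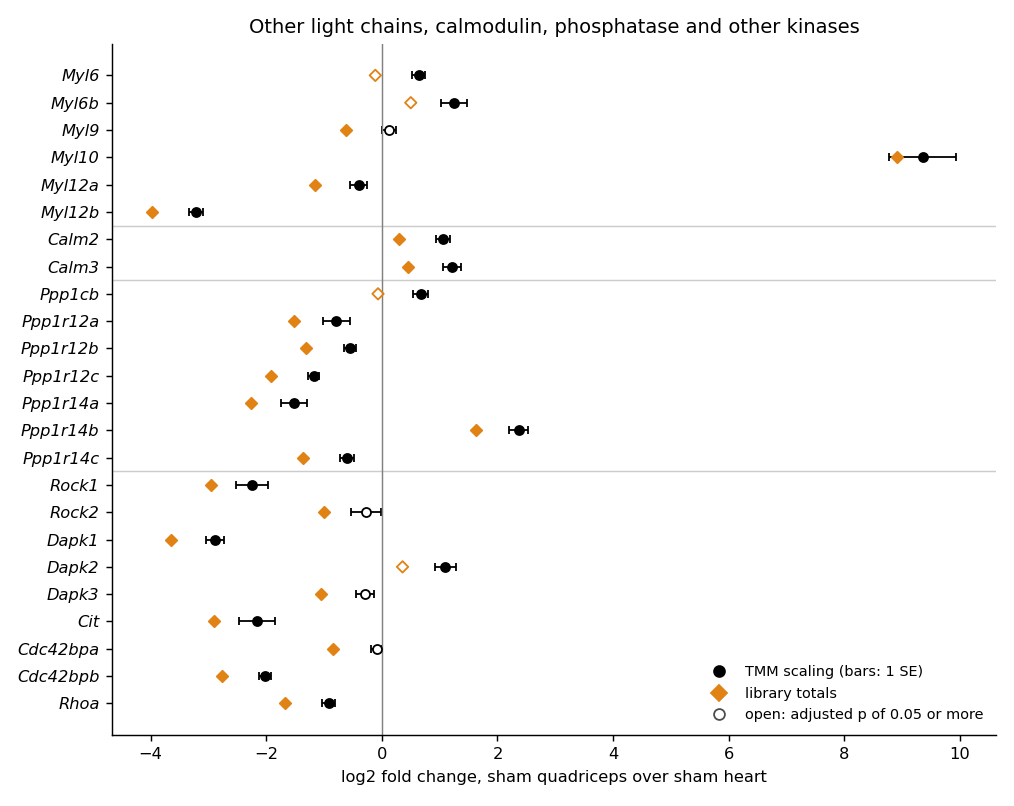
Log2 fold change of sham quadriceps over sham heart for the related genes named in the text, with the TMM scaling of the edgeR fit (black, bars of 1 SE) and with library totals (orange), and open symbols for an adjusted p of 0.05 or more. Horizontal lines separate the other light chains, calmodulin, the phosphatase and its inhibitors, and the other kinases with their activator. Library totals move nearly every gene to the left, and Myl6, Myl9 and Ppp1cb cross 0.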

How the data were processed

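The RNA of 6 sham libraries, 3 of heart and 3 of quadriceps, entered every comparison. Per the labels and methods, the authors used Trim Galore on single-end reads, STAR with mm10 for alignment and Rsubread for counting. They deposited raw counts per RefSeq transcript, and RPKM values in which these counts are divided by transcript length and library total. Versions and the strand setting of the counting are not given in the sources used here. The deposited tables also hold the authors' own fold changes, F scores and p-values, which were not used. The table of TAC against sham quadriceps lists 587 transcripts of selected genes, none of the 10 studied, and its 6 RPKM columns of single libraries were left unused.

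The test was edgeR's quasi-likelihood test (edgeR 4.0.16, R 4.3.3), two-sided, with TMM scaling and Benjamini-Hochberg adjustment. It covered 24280 of 35745 transcripts, those above 5 counts in 2 or more of the 6 libraries. The whole table was fitted and adjusted together, and a call is an adjusted p under 0.05. CPM are counts scaled to a common library size of 1e+06 after TMM. Library totals were 37057358, 38382751 and 33102826 for the hearts and 32651317, 32989108 and 23383452 for quadriceps, so that a transcript with no count lies under a floor of 3 counts per library. Counting intervals (95%) and floors cover counting error only. The gene's highest-count transcript stands for it, and every further transcript is given beside it. On simulated counts 100% of 200 transcripts changed by a log2 fold change of 2 were recovered among 23896, with 5.21% of the calls false. The simulation gave every transcript the same dispersion and changed only those 200, whereas 66.6% of tested transcripts were called in the data. It therefore does not cover differences this widespread or transcripts that varied among the hearts, such as Myl7 and Myl4. Replicates were compared pairwise and none was a duplicate. Alternatives were DESeq2 1.42.0, limma 3.58.1 on log2 RPKM (pseudocount 0.5, 1 or 0.1), library totals, RLE factors, other filters, 1 transcript per gene, the replicate number as a block and leaving out each library. Leaving out 2 hearts together was added after the data were seen.

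The named genes are the 10 studied, 25 related genes chosen for their role, marker genes of cell types, and the 3 genes nearest in pattern to Myl7 and to Mylpf. A gene of the related list, counted in its totals, is not reported here. The members and lists were chosen with earlier results of these data known. Gene positions come from GENCODE vM21 (GRCm38), transcripts were matched to it by RefSeq identifier, and promoter windows from RefSeq. Further steps ran in Python 3.11.15 (scipy 1.17.1, numpy 2.4.6, pandas 2.3.3).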

Additional observations from a re-analysis of the deposited data

How the results depend on the processing

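Of 209 alternative fold changes of the 13 member transcripts, 196 kept their direction and their side of the threshold, 12 kept the direction but no longer passed, and 1 turned. These exceptions all belonged to Myl4, Myl7 or Mylk. The value that turned was Myl4 without hearts 1 and 2 (0.98, adjusted p = 0.062). Limma on log2 RPKM gave Myl4 an adjusted p of 0.089 to 0.095, and Myl7 one of 0.062 with a pseudocount of 1. Fold changes of the low-count genes depend on the scale, as for Myl7 (-3.27 to -12.15 over its alternatives), Mylk2 (6.96 to 12.67), Mylk3 (-6.78 to -10.56) and Mylpf (12.28 to 15.36). With at least 10 counts in every library 7 of the member transcripts remained, all called, 3 with a log2 fold change over 2 and 3 under -2, since Mylpf, Mylk2, Mylk3 and Myl7 failed that filter in a tissue that nearly lacks them. Among related genes, Myl6 turned to -0.11 with library totals and -0.11, -0.10 and -0.11 with limma (pseudocount 0.5, 1 and 0.1), Myl9 to -0.62, -0.60, -0.58 and -0.62, and Ppp1cb to -0.066, -0.087, -0.086 and -0.087, and 5 related genes were called higher under each of these settings.

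Over all transcripts, 9803 were called with 1 transcript per gene, 9626 without hearts 1 and 2, and 3796 by the study's fold and p criterion in place of the adjusted p. Those with a log2 fold change over 2 numbered 861 with the stricter filter, 552, 419 and 801 with limma (pseudocount 0.5, 1 and 0.1) and 1059 with 1 transcript per gene. Those under -2 numbered 4171 with library totals, 839 with the stricter filter, 1344 and 903 with limma (pseudocount 0.5 and 1), 1353 with 1 transcript per gene and 1264 without hearts 1 and 2. Leaving out single libraries gave 14396 to 16503 calls over all transcripts and 11 to 12 among the members.

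Summing all transcripts of a gene moved the quadriceps shares to 98.5% for Mylpf, 1.45% for Myl2, 98.9% for Myl1 and 1.05% for Myl3, and the heart shares to 86.9% for Mylk3, 11.7% for Mylk4 and 1.37% for Mylk. These sums may hold reads of shared exons more than once.

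Libraries of the same number did not deviate together (r of 0.0545, -0.0528 and 0.0352), and whether they come from the same mouse is not known. With the replicate block 15716 transcripts were called, the log2 fold change of Myl4 being -2.31 (adjusted p = 0.024) and that of Myl7 -9.98. All 13 member transcripts stayed called.

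With 3 libraries a tissue, exact tests of single ratios cannot pass 0.05. Counts of 11 or fewer for Mylpf and Mylk2 in heart and Mylk3 and Myl7 in quadriceps limit how finely their low side can be read, and heart chambers are not given in the labels.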
